A study of Mus musculus with 12 samples.

Results

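The genes described here are 10 members of the hepatic insulin signaling pathway, taken by gene symbol from the deposited count tables, which list 50559 genes. They are the receptor gene Insr, the adaptor genes Irs1 and Irs2, Pik3r1, Akt1, Akt2, Foxo1, the phosphatase gene Ptpn1 and the secreted binding protein genes Igfbp1 and Igfbp2. All 10 were found in every table, and all 10 passed the filter on low counts in every comparison. Liver RNA was sequenced from C57BL/6N mice in 4 groups of 3 libraries, which the labels call biological replicates. The groups were normal chow (NCD), high-fat feeding in which fat supplied 60% of the energy (HFD), HFD+C1 and HFD+C2. Feeding lasted 12 weeks, and the compounds C1 and C2 were given by intraperitoneal injection at 5 mg/kg/day, also for 12 weeks. Both are CYP4A inhibitors by the title of the series; CYP4A enzymes hydroxylate fatty acids. The labels do not say what the NCD and HFD mice were injected with, and do not give sex or age. P-values set a difference between groups against the spread between these libraries.

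In hepatocytes, insulin binds the insulin receptor, which phosphorylates the adaptor proteins IRS1 and IRS2. These recruit phosphatidylinositol 3-kinase through its regulatory subunit, the product of Pik3r1, and the lipid it makes activates the AKT kinases. AKT phosphorylates the transcription factor FOXO1 and keeps it out of the nucleus, so that FOXO1 targets such as Irs2 and Igfbp1 are typically high in fasting and low when insulin acts. PTPN1, also called PTP1B, removes phosphate from the activated receptor. IGFBP1 and IGFBP2 are secreted proteins that bind insulin-like growth factors.

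The promoters of Igfbp1, Irs2 and Igfbp2, the genes with the most negative log2 changes on HFD, are shown with that of Irs1, the paralog of Irs2. Each is the 250 bases before the transcription start in the RefSeq table (build GRCm38.p6), read 5′ to 3′ on the strand of the gene. The windows are chr11:7197537-7197786 (plus strand), chr8:11008930-11009179 (minus strand), chr1:72824230-72824479 (plus strand) and chr1:82291440-82291689 (minus strand). Capitals mark CAAAACA or its reverse complement TGTTTTG, the core of the insulin response element that FOXO1 binds, and the E-box CACGTG, which can overlap the former. The motif letters were chosen with the sequences in view.
Igfbp1: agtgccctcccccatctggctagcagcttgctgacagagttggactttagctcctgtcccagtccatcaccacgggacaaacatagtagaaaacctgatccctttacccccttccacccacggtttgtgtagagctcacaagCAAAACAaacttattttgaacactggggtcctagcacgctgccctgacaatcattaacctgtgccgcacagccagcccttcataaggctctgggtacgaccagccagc
Irs2: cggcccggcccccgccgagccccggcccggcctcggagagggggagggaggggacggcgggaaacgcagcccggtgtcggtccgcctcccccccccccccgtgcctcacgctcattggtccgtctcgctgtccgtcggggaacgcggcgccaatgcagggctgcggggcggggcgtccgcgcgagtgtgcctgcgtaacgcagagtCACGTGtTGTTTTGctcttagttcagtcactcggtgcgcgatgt
Igfbp2: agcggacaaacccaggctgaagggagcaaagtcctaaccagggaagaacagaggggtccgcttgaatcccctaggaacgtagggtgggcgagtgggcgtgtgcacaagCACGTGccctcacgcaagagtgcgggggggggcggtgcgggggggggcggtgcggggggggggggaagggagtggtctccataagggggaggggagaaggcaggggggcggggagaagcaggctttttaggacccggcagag
Irs1: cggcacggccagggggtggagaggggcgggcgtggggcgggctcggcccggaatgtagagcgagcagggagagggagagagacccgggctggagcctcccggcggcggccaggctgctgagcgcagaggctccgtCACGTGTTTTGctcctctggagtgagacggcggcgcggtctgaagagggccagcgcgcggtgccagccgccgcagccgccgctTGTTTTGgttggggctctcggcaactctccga
CAAAACA begins 108 bases before the start of Igfbp1. Its reverse complement lies 37 bases before the start of Irs2, and 111 and 32 bases before the start of Irs1. In Irs2 and in Irs1 an E-box stands close to or overlaps such a core, at 44 and 115 bases before the start. The Igfbp2 window shown held an E-box at 142 bases and no match to the core. Another Igfbp2 window, chr1:72825137-72825386, held none of the motifs searched. The bases just after the start were found in a GENCODE transcript for this other window and for Igfbp1. They were not found for the Irs2, Irs1 and Igfbp2 windows shown, so the distances there rest on the RefSeq start alone. Of 32851 promoter windows of the same length, 5.56% held the core on either strand and 6.02% held the E-box. The other FOXO element searched, GTAAACA with its reverse complement TGTTTAC, was in 3.17% of windows and, among the members, in that of Akt1 at 161 bases before the start. Promoter sequences matched 9 of the 10 members, all but Insr. A match describes the letters in the window and nothing about occupancy.

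Libraries held 4281210 to 32124248 reads counted in genes, so that 3 reads corresponded to between 0.701 and 0.0934 CPM (counts per gene scaled to a common total of reads counted in genes). NCD replicate 2 was the shallowest. NCD replicate 1 and HFD+C2 replicate 1 stood apart from their groups: 58.2% and 47.1% of their reads were assigned to no gene, whereas this share was 27.3% to 40.7% elsewhere. Over 10133 genes, Pearson's r of log2(CPM + 1) was 0.920 and 0.943 between NCD replicate 1 and its group, and 0.979 between NCD replicates 2 and 3. For HFD+C2 replicate 1 it was 0.955 and 0.953, and 0.988 between HFD+C2 replicates 2 and 3. All 10 listed hepatocyte markers were detected, with a summed level of 37055 CPM in NCD replicate 1, 78936 CPM in HFD+C2 replicate 1, and 87370 to 152210 CPM in the other libraries. Skeletal muscle markers summed to 102 CPM in NCD replicate 3 and at most 1.42 CPM elsewhere. In bulk tissue, fewer cells of a type and less RNA per cell cannot be told apart.

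The first comparison asked how the diet changed these genes. Irs2 and Igfbp2 fell on HFD, to 19.5% and 30.3% of their chow levels, while none of the 10 members rose past the threshold. With edgeR (quasi-likelihood test, Benjamini-Hochberg adjustment over all 13864 genes tested, adjusted p under 0.05), 2 of the 10 members were called, where 6.03% of all genes were. Both were lower, as were 3.44% of all genes. Igfbp1, Akt1 and Pik3r1 had an unadjusted p under 0.05 without passing the adjusted threshold, so that 5 of 10 members reached that level, against 28.9% of all genes. The median log2 change was -0.20 over the members and -0.02 over all genes tested. Log2 changes are on a scale normalised by TMM, whereas CPM values are scaled by the gene reads of the library alone. That simpler scaling moved the median log2 change of all genes to -0.24, so CPM values of HFD against NCD read lower than the log2 changes. It also moved the split of called genes from 359 higher and 477 lower to 241 higher and 864 lower, with the same 2 members called.

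**Figure D1:**
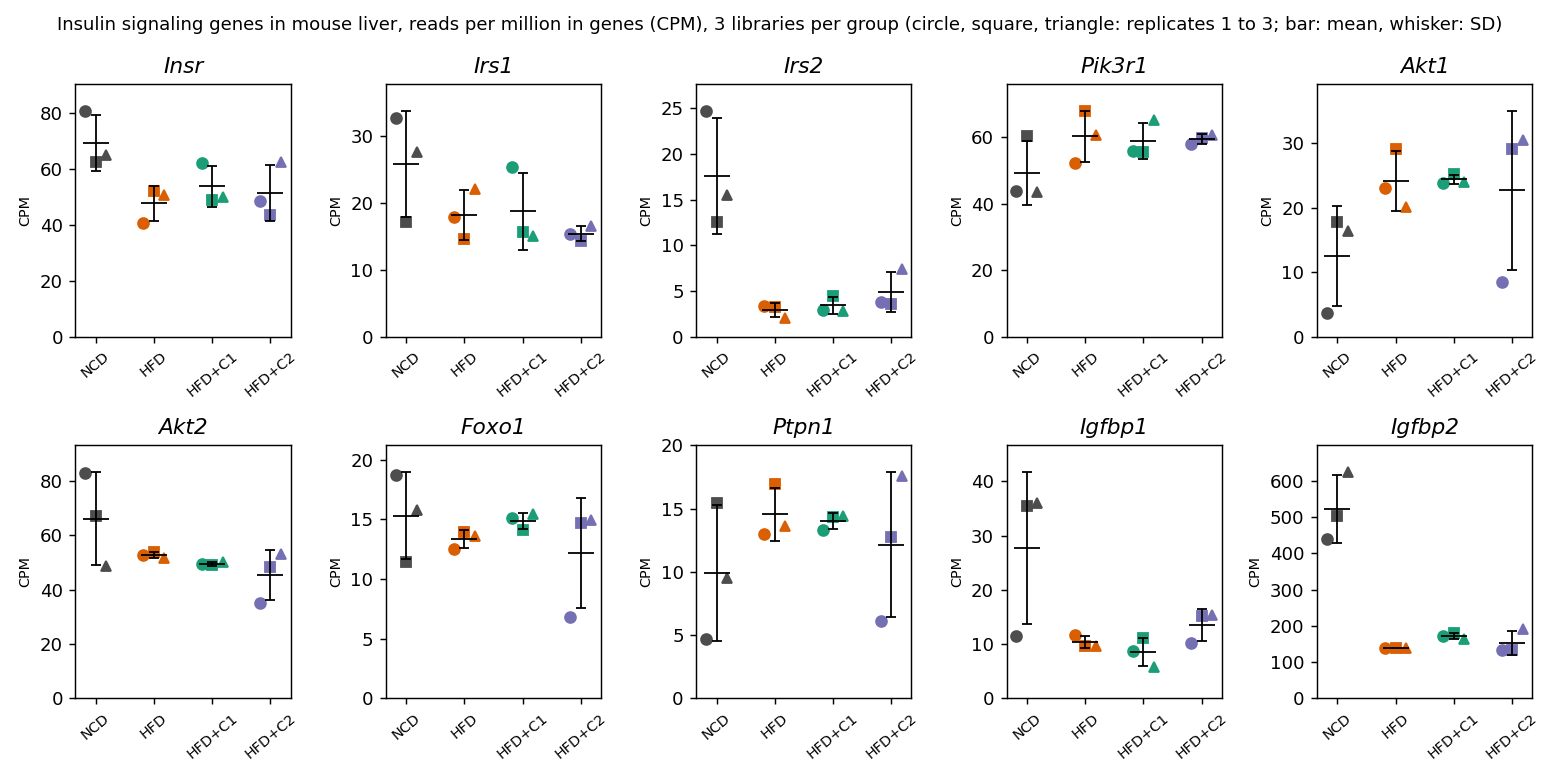
Level of each of the 10 members in CPM (y axis, linear from 0) in the 4 groups (x axis), with a point per library, the mean as a bar and the SD as whiskers (n = 3 per group). Irs2 and Igfbp2 lay lower in all 9 HFD, HFD+C1 and HFD+C2 libraries than in any NCD library, while Akt1 and Ptpn1 were lowest in NCD replicate 1 and HFD+C2 replicate 1.

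Irs2, on chromosome 8 (chr8:10984681-11008929), encodes the adaptor whose hepatic transcript is repressed by insulin. It stood at 24.8, 12.6 and 15.5 CPM in NCD replicates 1 to 3 (244, 54 and 359 reads) and at 3.42, 3.31 and 2.10 CPM in HFD replicates 1 to 3 (110, 93 and 53 reads). Every HFD library was below every NCD library. The log2 change was -2.36 (standard error 0.30, edgeR adjusted p 0.00893). The paralog Irs1 (chr1:82233105-82291439) ranged from 17.1 to 32.7 CPM in NCD and from 14.5 to 22.0 CPM in HFD, and its groups overlapped (log2 change -0.30, standard error 0.26, edgeR adjusted p 0.469). Scaled by exon length, Irs2 was at 1.10, 1.07 and 0.815 times the level of Irs1 in the NCD libraries and at 0.278, 0.330 and 0.138 times in the HFD libraries. This ratio does not depend on library scaling; it was computed after the values of both genes were seen, and its exact two-sided permutation p was 0.1, the smallest that 3 against 3 libraries allow (0.24 adjusted over 12 such tests of 3 gene pairs).

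Igfbp2 (chr1:72824480-72852474) was the most abundant member per length in all 4 groups. It was at 440, 503 and 624 CPM in NCD and at 137, 138 and 138 CPM in HFD, so that the HFD libraries were nearly alike and far below the lowest NCD library. The log2 change was -1.72 (standard error 0.21, edgeR adjusted p 0.00781). Summed hepatocyte markers were lower in every NCD library (37055 to 89309 CPM) than in any HFD library (94743 to 116637 CPM). Lymphocyte markers were higher in NCD, at 5.14 to 12.1 CPM against 2.96 to 4.84 CPM, as were skeletal muscle markers, at 0.467 to 102 CPM against 0.198 to 0.374 CPM. The share of reads assigned to no gene was also higher in every NCD library (35.7% to 58.2%) than in any HFD library (31.9% to 32.9%). The part of these markers and of this share in the changes of Irs2 and Igfbp2 was not tested. The library with the highest Igfbp2 value, NCD replicate 3, was also the one with skeletal muscle markers at 102 CPM; without it the log2 change was -1.52 (edgeR adjusted p 0.0326).

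Igfbp1 (chr11:7197787-7202546), a FOXO1 target that insulin represses within hours, was split within chow. It was at 35.5 and 36.0 CPM in NCD replicates 2 and 3 but at 11.5 CPM in NCD replicate 1, inside the HFD range of 9.67 to 11.7 CPM. The log2 change was -1.22 (standard error 0.41, edgeR adjusted p 0.103). Without NCD replicate 1 it was -1.64 and called (edgeR adjusted p 4.7e-05). Of 8 alternatives that kept every library, 3 called it: DESeq2 (log2 change -1.24, adjusted p 0.0331), a fit of all 12 libraries (-1.23, edgeR adjusted p 0.0378) and no filter (-1.09, edgeR adjusted p 0.000657). The other 5 did not, with adjusted p from 0.0535 for scaling by total gene counts (-1.42, edgeR) to 0.186 for limma (-0.98).

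Upstream of the adaptors, Insr (chr8:3150922-3279649) was at 80.9, 62.6 and 65.0 CPM in NCD and at 40.7, 52.1 and 50.8 CPM in HFD. These CPM values did not overlap, but they did on the TMM scale, and the log2 change of -0.32 had a 95% interval from -0.71 to 0.06 (edgeR adjusted p 0.234). Downstream, Pik3r1 (chr13:101680761-101768217) was at 43.9, 60.3 and 43.5 CPM in NCD and at 52.4, 67.8 and 60.7 CPM in HFD (log2 change 0.50, 95% interval 0.06 to 0.95, edgeR adjusted p 0.139). Akt1 (chr12:112653821-112674884), encoding one of the AKT kinases, was at 3.65, 17.8 and 16.4 CPM in NCD and at 23.0, 29.2 and 20.2 CPM in HFD. Every HFD library exceeded every NCD library, but the log2 change of 1.13 had a standard error of 0.49 and was not called (edgeR adjusted p 0.170). Without NCD replicate 1 it was smaller, 0.66, and called (edgeR adjusted p 0.0320).

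The remaining members did not pass the threshold. Akt2 (chr7:27591552-27640826), the AKT gene most tied to insulin action in liver, was at 48.6 to 82.8 CPM in NCD and 51.7 to 53.7 CPM in HFD (log2 change -0.10, 95% interval -0.54 to 0.34). Foxo1 (chr3:52268337-52350109) was at 11.4 to 18.7 CPM in NCD and 12.5 to 13.9 CPM in HFD, with a log2 change of 0.003 and an interval from -0.46 to 0.46. Ptpn1 (chr2:167930750-167979385) was at 4.67, 15.4 and 9.55 CPM in NCD and 13.0 to 17.0 CPM in HFD (log2 change 0.80, 95% interval -0.07 to 1.67). Its log2 change was 0.45 without NCD replicate 1 (edgeR adjusted p 0.182) and 1.20 without NCD replicate 2 (edgeR adjusted p 0.0654). Over the 10 members, 4 had groups that did not overlap in CPM (Insr, Irs2, Akt1 and Igfbp2), against 38.9% of all genes tested. On the TMM scale the groups of Insr overlapped, whereas those of Pik3r1 and Ptpn1 did not. The share of all genes on that scale is not given here.

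**Figure D2:**
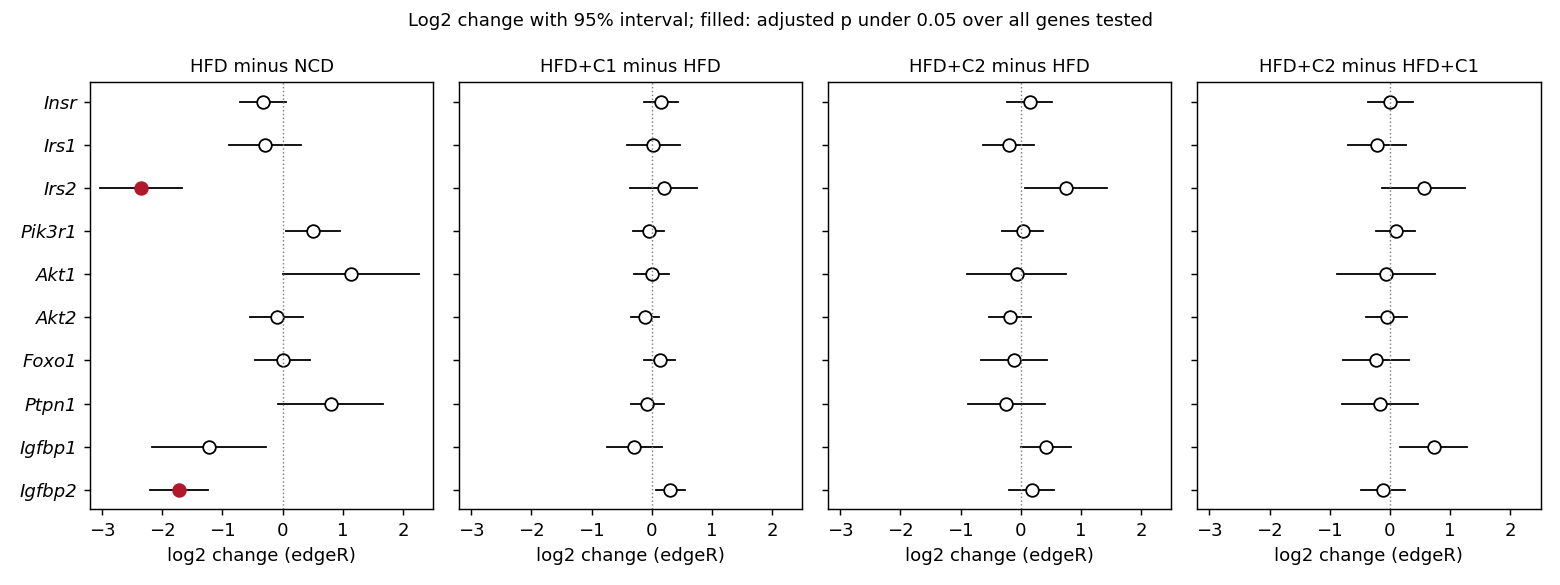
Log2 change (x axis) of each member (y axis) with its 95% interval, from edgeR, in the comparisons of HFD with NCD, of each compound group with HFD, and of C2 with C1; filled points had an adjusted p under 0.05 over all genes tested. Filled points are Irs2 at -2.36 and Igfbp2 at -1.72 for the diet, and there are none in the other panels.

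Irs2 and Igfbp2 were also called in each of 8 alternative analyses that kept every library. Their log2 changes there ran from -2.59 to -2.02 and from -1.93 to -1.56. With 1 library left out they were called in 4 of 6 fits. Without HFD replicate 1 the adjusted p rose to 0.0684 for Irs2 (log2 change -2.50) and 0.0981 for Igfbp2 (-1.74), and without HFD replicate 3 to 0.0628 (-2.15) and 0.0867 (-1.71). In those fits 23 and 25 of all genes were called, against 836 with all libraries. Without NCD replicate 1, 4 members were called: Irs2, Igfbp1 and Igfbp2 lower and Akt1 higher.

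**Figure D3:**
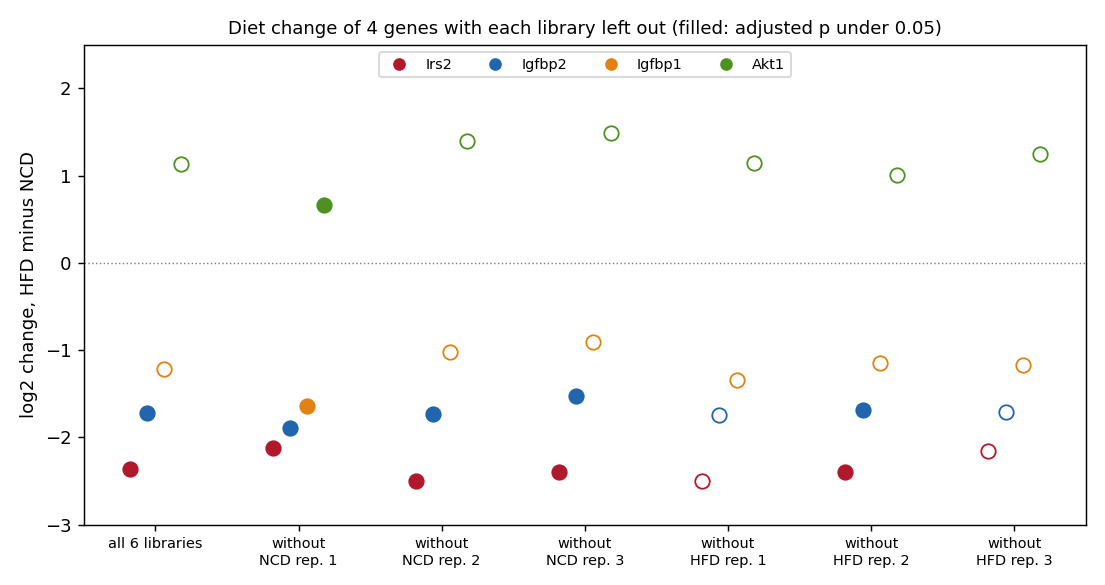
Log2 change of HFD against NCD (y axis) for Irs2, Igfbp2, Igfbp1 and Akt1 with all 6 libraries and with each library left out (x axis); filled points had an edgeR adjusted p under 0.05. No value changes sign: Irs2 lies between -2.50 and -2.12, Igfbp2 between -1.89 and -1.52, Igfbp1 between -1.64 and -0.91 and Akt1 between 0.66 and 1.49.

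Some members followed the libraries that stood apart. In NCD replicate 1, Akt1 was lower than the mean of the other NCD libraries by a log2 ratio of -1.96, Igfbp1 by -1.56 and Ptpn1 by -1.25, while Irs2 was higher by 0.77. In HFD+C2 replicate 1, Akt1 (-1.70), Ptpn1 (-1.18) and Foxo1 (-1.01) were lowest relative to the other HFD+C2 libraries. Akt1 was thus in the lowest 0.671% and 0.375% of 10133 genes by this ratio. For comparison, the median ratio over all genes stood at 0.01 for the NCD library and -0.22 for the HFD+C2 library. The part of the unassigned reads in these values was not tested.

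**Figure D4:**
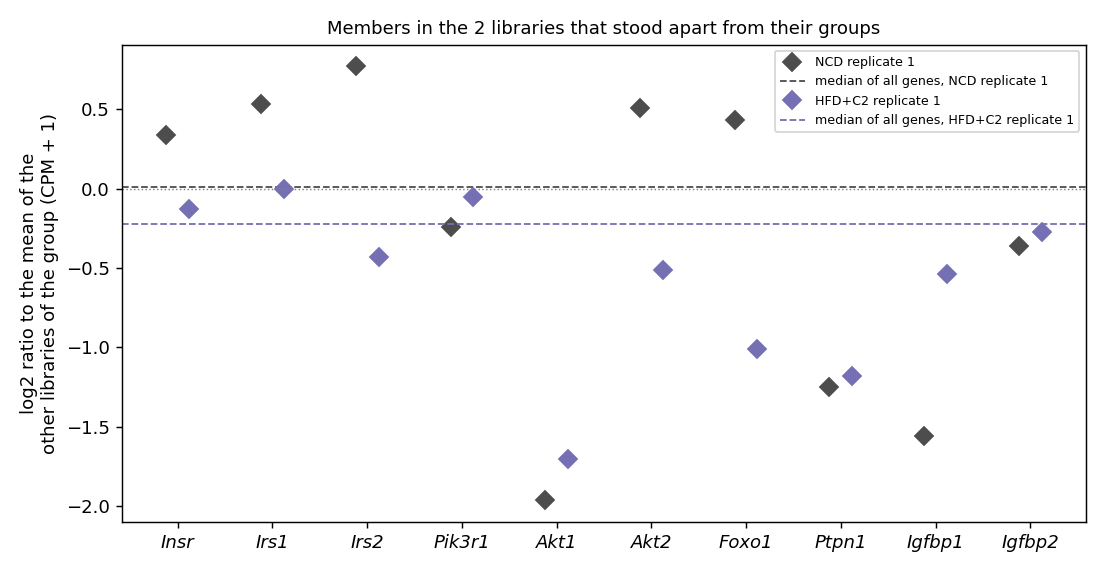
Log2 ratio (y axis, on CPM + 1) of each member (x axis) in the libraries NCD replicate 1 and HFD+C2 replicate 1 to the mean of the other libraries of its group; dashed lines are the median of all genes in that library. Akt1 and Ptpn1 lie more than 1 log2 unit below 0 in both libraries.

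Compared per kilobase of exon, Igfbp2 led at 283 ± 50.7 CPM per kb in NCD and 74.5 ± 0.0798 in HFD (SD, n = 3). In NCD, Igfbp1 (18.1 ± 9.20), Akt2 (9.27 ± 2.4), Insr (5.06 ± 0.726) and Pik3r1 (4.89 ± 0.947) followed, and Ptpn1 (1.79 ± 0.973) and Foxo1 (1.77 ± 0.420) were lowest (CPM per kb, SD, n = 3). Igfbp1 overlapped Akt2, Insr overlapped Pik3r1, and from Pik3r1 down to Foxo1 each gene overlapped the next. In HFD, Irs2 moved to the lowest place at 0.466 ± 0.116 CPM per kb, with every library below every library of Foxo1 (1.54 ± 0.0863; SD, n = 3). Irs2 was also the lowest of the 10 in HFD+C1 (0.543 ± 0.141) and HFD+C2 (0.776 ± 0.338; SD, n = 3), although in HFD+C2 its libraries overlapped those of Foxo1. These orders are descriptions, since how the reads of each isoform contribute is not known.

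The second comparison asked how C1 changed these genes in HFD-fed mice. None of the 10 members passed the threshold: edgeR called 0 of 10, against 0.0524% of the 13358 genes tested. Igfbp2 was the only member with an unadjusted p under 0.05, a level that 7.75% of all genes reached. It was at 173, 181 and 165 CPM in HFD+C1, above the 137 to 138 CPM of HFD and below the 440 CPM of the lowest NCD library. The log2 change was 0.31 with a 95% interval from 0.07 to 0.55 (edgeR adjusted p 0.485). Summed Kupffer cell and macrophage markers were also higher, at 288 to 361 CPM in HFD+C1 against 164 to 238 CPM in HFD, and their part in this value was not tested. The same markers were at 239 to 429 CPM in HFD+C2, also above every HFD library. The share of reads assigned to no gene was 27.3% to 28.7% in HFD+C1, below every HFD library.

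Irs2 stayed low under C1, at 2.98, 4.46 and 2.86 CPM, and its log2 change against HFD was 0.20 with a 95% interval from -0.36 to 0.75. Igfbp1 was at 8.68, 11.1 and 5.83 CPM (log2 change -0.29, interval -0.75 to 0.16). Both genes overlapped HFD. Akt2 (48.9 to 50.3 CPM) lay just below HFD and Foxo1 (14.1 to 15.4 CPM) just above it without overlap, with log2 changes of -0.11 and 0.13 (edgeR adjusted p 0.876 and 0.873). With Igfbp2 these made 3 of 10 members with groups that did not overlap in CPM, against 12.1% of all genes. The log2 changes of Insr, Irs1, Pik3r1, Akt1 and Ptpn1 lay between -0.07 and 0.15. The median over the members was 0.01, as over all genes tested (0.01).

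For C2 the same question was put. Again edgeR called 0 of 10 members, against 0.0222% of the 13503 genes tested. Irs2 was the only member with an unadjusted p under 0.05, which 6.89% of all genes reached. It was at 3.80, 3.54 and 7.37 CPM in HFD+C2, and each library lay above the HFD maximum of 3.42 CPM, 2 of them only slightly. Of the members it was the 1 whose groups did not overlap in CPM, against 13.0% of all genes. On the TMM scale those of Akt2 did not overlap either. The log2 change of Irs2 was 0.75 (standard error 0.30, edgeR adjusted p 0.695), and without HFD+C2 replicate 3 it was 0.42. All HFD+C2 values remained below the lowest NCD library at 12.6 CPM. The Kupffer cell and macrophage markers were higher under C2 as well, at 429, 280 and 239 CPM against 164 to 238 CPM in HFD, and their part in the values of Irs2 and Igfbp1 was not tested.

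Igfbp1 was at 10.2, 15.1 and 15.3 CPM under C2 (log2 change against HFD 0.42, 95% interval -0.004 to 0.84, edgeR adjusted p 0.695). Igfbp2 was at 134, 133 and 190 CPM, where only replicate 3 exceeded HFD (log2 change 0.18, edgeR adjusted p 0.778). Akt1 was at 8.47, 29.2 and 30.5 CPM, Ptpn1 at 6.14, 12.8 and 17.6 CPM and Foxo1 at 6.83, 14.7 and 15.0 CPM, each lowest in replicate 1. Without that replicate their log2 changes went from -0.07, -0.24 and -0.11 to 0.30, 0.04 and 0.14. Insr (0.15), Irs1 (-0.20), Pik3r1 (0.03) and Akt2 (-0.18) had 95% intervals that included 0. The C1 and C2 comparisons share the HFD libraries, so their values are not independent of each other.

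C1 and C2, given at the same dose for the same time, were then compared directly. edgeR called 0 of 10 members, and 0% of the 13229 genes tested. DESeq2 called 3 genes, none of them a member, and 608 genes (4.60%) had an unadjusted edgeR p under 0.05. Igfbp1 was the 1 member among these. It was 1.65-fold higher under C2, at 10.2 to 15.3 CPM against 5.83 to 11.1 CPM under C1, with a log2 difference of 0.72 and a 95% interval from 0.16 to 1.29 (edgeR adjusted p 0.841). The groups overlapped in CPM for all 10 members, where 11.6% of all genes did not overlap. Irs2 differed by 0.56 (interval -0.13 to 1.24) and Igfbp2 by -0.12 (-0.49 to 0.25). For Insr (-0.36 to 0.38), Pik3r1 (-0.23 to 0.42) and Akt2 (-0.40 to 0.28) the log2 intervals excluded differences beyond 0.42 either way. Those of Irs1, Akt1, Foxo1 and Ptpn1 were wider, reaching from -0.87 to 0.75 for Akt1. The labels name no structural difference between C1 and C2.

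Around the members, 6 lists of other pathway genes were followed, 139 genes in the tables with each counted once. For the diet 126 were tested and 12 were called, 5 higher and 7 lower, against 6.03% of all genes. Among receptors and adaptors 1 of 12 was called. Gab1, a docking protein, fell: it was at 14.1 ± 4.36 CPM in NCD and 5.74 ± 1.41 CPM in HFD (SD, n = 3; log2 change -1.08, edgeR adjusted p 0.0477). Of 27 kinases and regulators between PI3K and mTOR, 2 rose: Mtor (log2 change 1.17, edgeR adjusted p 0.0485) and Tsc2 (log2 change 1.17, edgeR adjusted p 0.0375), whose product restrains mTOR complex 1. Of 27 tested brakes on the pathway none was called for the diet by edgeR, and 6 had an unadjusted p under 0.05, a level that 28.9% of all genes reached. Grb14, an inhibitor of the receptor kinase, had the smallest edgeR adjusted p at 0.0792 with a log2 change of 1.08, followed by the phosphatase gene Ptpra (log2 change 0.85, edgeR adjusted p 0.0794).

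In the FOXO list, 2 of 26 genes were called, both lower, a share near the 6.03% of all genes called. Pdk4, an inhibitor of pyruvate oxidation that FOXO1 induces, went from 34.8 ± 9.87 down to 8.20 ± 1.58 CPM (SD, n = 3; log2 change -1.86, edgeR adjusted p 0.00994). Txnip, which encodes a thioredoxin-binding protein that limits glucose uptake, went from 22.4 ± 2.20 down to 9.88 ± 3.09 CPM (SD, n = 3; log2 change -0.97, edgeR adjusted p 0.0460). The median of this list was -0.15, and 12 of 26 genes had a positive value. Among genes that insulin raises in liver, 6 of 23 were called, 2 higher and 4 lower, against the same 6.03%. An unadjusted edgeR p under 0.05 was reached by 19 of the 23, against 28.9% of all genes, and 11 of the 23 had a positive value. Angptl8, a secreted regulator of lipoprotein lipase, rose by 1.46 and Bhlhe40, a transcriptional repressor, by 1.36 on the log2 scale. Egr1, an immediate-early transcription factor, fell by 2.61, Ppp1r3c, a glycogen-targeting phosphatase subunit, by 1.66, Insig1, which retains SREBP proteins in the endoplasmic reticulum, by 1.41 and Mlxipl, which encodes ChREBP, by 0.75. Their edgeR adjusted p ranged from 0.00927 for Egr1 to 0.0460 for Mlxipl. In the IGF axis 1 of 12 was called, again against 6.03%: Igfbp7 rose from 16.4 ± 6.30 to 41.1 ± 4.72 CPM (SD, n = 3; log2 change 1.51, edgeR adjusted p 0.0393). Igfbp7 and Igfbp2 thus changed in opposite directions. The hepatocyte, lymphocyte and skeletal muscle markers and the share of unassigned reads did not overlap between NCD and HFD. Their part in the changes of the genes of all 6 lists was not tested.

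**Figure D5:**
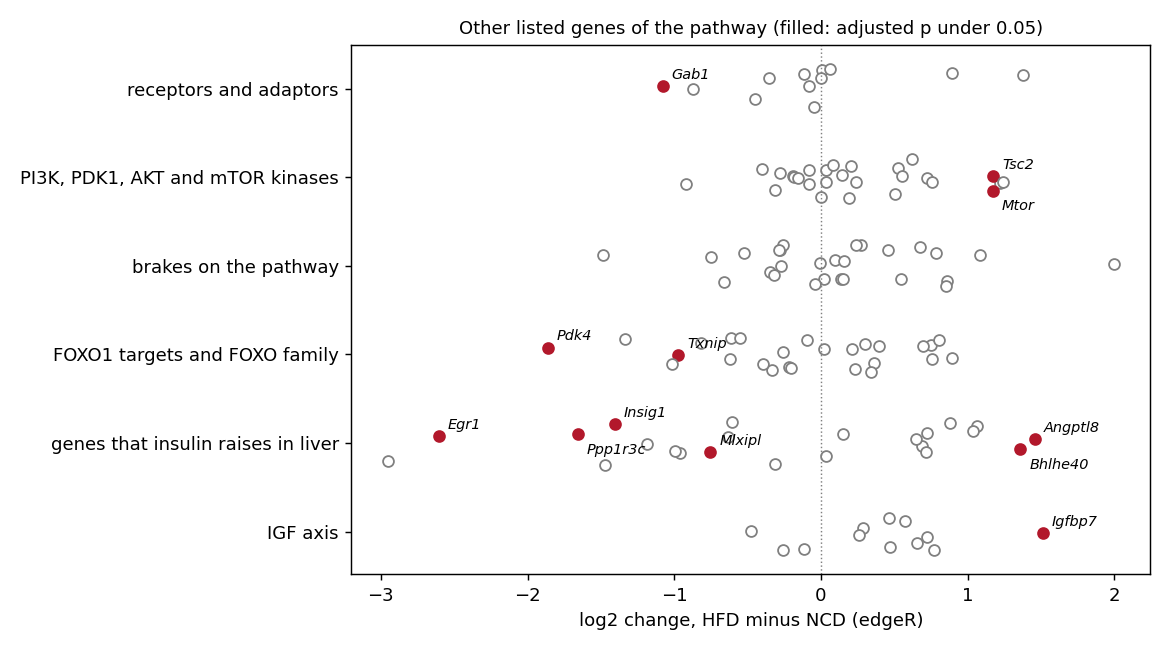
Log2 change of HFD against NCD (x axis, edgeR) for the tested genes of 6 pathway lists (rows, with vertical scatter for visibility); filled and named points had an adjusted p under 0.05. The filled points lie on both sides of 0, from -2.61 for Egr1 to 1.51 for Igfbp7.

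These 12 calls depended on single libraries and on the method. With limma Gab1, Insig1, Mlxipl, Mtor, Ppp1r3c and Txnip were not called, and a fit blocked on replicate number did not call Gab1, Insig1, Mlxipl, Mtor, Tsc2 and Txnip. Mlxipl lost the call with no filter and Mtor with scaling by total gene counts. All 12 remained called without NCD replicate 1, where Ppp1r3c changed from -1.66 to -1.16 and Insig1 from -1.41 to -0.96. Without HFD replicate 1 or HFD replicate 3 none was called by edgeR (smallest adjusted p 0.0798 and 0.0627), and without HFD replicate 2 only Bhlhe40 and Pdk4 were. Without NCD replicate 2 Gab1 and Txnip lost the call, and without NCD replicate 3 there were 5 calls, of Angptl8, Bhlhe40, Egr1, Igfbp7 and Pdk4. No log2 change of the 12 reversed in any of these fits. Mlxipl lay outside the 5 largest changes among the called genes of its list, and it was named after its value was seen. Under C1 none of the 124 tested list genes was called by edgeR (15 with an unadjusted p under 0.05, against 7.75% of all genes), and under C2 1 of 126 was, against 0.0222% of all genes. That gene was Cish, a cytokine-signaling inhibitor from the list of brakes, which changed by -3.65 under C2 (edgeR adjusted p 0.00753) and by -2.54 under C1 (edgeR adjusted p 0.106). It was at 10.6, 22.5 and 10.4 CPM in HFD, 0.951 to 1.24 CPM in HFD+C2 and 0.398 to 4.88 CPM in HFD+C1. In NCD it was at 0.609, 13.3 and 1.51 CPM, so Cish also varied widely between libraries without a compound. The smallest adjusted p of the lists under C1 was that of Socs2, another cytokine-signaling inhibitor (log2 change -2.46, edgeR adjusted p 0.0984). The Cish call was lost without HFD+C2 replicate 3 (edgeR adjusted p 0.0726), without HFD replicate 1 (0.0576) and in the fit of all 12 libraries (0.756). For insulin-raised genes the median log2 change was -0.36 under C2, with 6 of 22 positive, and -0.16 under C1, with 8 of 22 positive, against 0.02 and 0.01 over all genes. The Kupffer cell and macrophage markers, at 239 to 429 CPM in HFD+C2 and 288 to 361 CPM in HFD+C1, were above every HFD library, and HFD+C2 replicate 1 stood apart; the part of either in these medians was not tested. No gene of the lists was called between C2 and C1 (7 of 125 with an unadjusted edgeR p under 0.05, against 4.60% of all genes).

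Across the 12 libraries, genes with the pattern most like that of a member were sought among 10133 genes by Pearson's r of log2(CPM + 1). These correlations are descriptions; all libraries share the step between chow and HFD, and depth and library quality differ. Egr1 (r 0.974), Cyp2b10 (0.970) and Pnp (0.967) were most like Igfbp2, and Cd36, a fatty acid transporter, was most opposed (-0.978). Wrnip1 (0.957), Rai1 (0.953) and Chic2 (0.946) were most like Irs2, with Cd36 again most opposed (-0.952). Tmem25 (0.910), Pim3 (0.892) and Snrnp40 (0.885) were most like Igfbp1, and Themis was most opposed (-0.928). Without NCD replicate 1 and HFD+C2 replicate 1, the size of these r values lay between 0.885 and 0.986. Spearman's rho was weaker, from 0.594 for Wrnip1 to 0.888 for Chic2 among the positive ones. Between members, Akt1 and Ptpn1 had the highest r (0.94), and Irs2 and Igfbp2 followed (0.91). Over the 10 libraries left without those that stood apart, a choice made after seeing the data, r was 0.61 for Akt1 and Ptpn1, so its rank rested on those libraries. It was 0.93 for Irs2 and Igfbp2, the highest of the member pairs, and 0.92 for Irs2 and Igfbp1 (0.65 over all 12).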

How the data were processed

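The authors deposited gene-level read counts, spread over 3 tables; their names call them normalized, but all are whole numbers with unequal totals, and the HFD columns are identical in the 3 tables (0 cells differ). The submitters' processing notes name Trimmomatic 0.39, STAR 2.7, DESeq2 and the mm10 build; annotation and strand use are not given in the sources used here. The 4 rows that name no gene (27.3% to 58.2% of reads) were left out of library sizes.

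Each comparison was fitted on its own 6 libraries with edgeR 4.0.16 (R 4.3.3): a filter on the mean count (10 or more), TMM scaling, quasi-likelihood test, Benjamini-Hochberg adjustment over all genes tested, call at an adjusted p under 0.05. Alternatives were other scalings and filters, DESeq2 1.42.0, limma 3.58.1 on log2(CPM + 1), the replicate number as a block, a fit of all 12 libraries and each library left out. The edgeR step was tested on simulated data. Gene positions and promoters are from RefSeq GRCm38.p6, exon lengths from GENCODE M21. The text names every member, the genes of each list that were called in any comparison (up to the 5 largest changes per list and comparison; every list held one) and, for likeness, the 3 highest and the lowest r. Grb14, Ptpra, Socs2 and Mlxipl fall outside this and were named after their values were seen. 1 gene of the lists is not reported here and was left out of their counts. Members and lists were chosen with earlier results of these data known. Counting floors of 3 reads cover counting error only.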

Additional observations from a re-analysis of the deposited data

How the results depend on the processing

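The count of genes called for the diet, 836, was 4493 with no filter, 2298 with DESeq2, 2418 with all 12 libraries in the fit, 524 with a mean of at least 50 counts and 361 with limma. With 1 library left out it ranged from 23 to 1838. Members called for the diet went from 2 to 5 with no filter (Akt1, Ptpn1 and Igfbp1 added) and from 0 to 4 with 1 library left out. For C1 the count of 7 was 206 with no filter, 72 with DESeq2 and 0 with all 12 libraries, and 2 to 102 with 1 library left out. For C2 the count of 3 was 152, 35 and 0, and 0 to 27. Between C2 and C1 the count of 0 was 162 with no filter, 3 with DESeq2 and 0 to 1 with 1 library left out. No member was called for either compound, or between them, in any setting.

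Some log2 changes of members that were not called changed sign, and not only those near 0. Among them, in the main fit, were Irs2 for C1 (0.20) and Ptpn1 for C2 (-0.24). Between C2 and C1 they included Foxo1 (-0.23), Irs1 (-0.21) and Ptpn1 (-0.16). For the diet, Foxo1 was -0.01 with median-ratio scaling, -0.22 with total counts alone, -0.07 with the stricter filter and -0.02 with DESeq2, and from -0.12 to 0.08 with 1 library left out; Akt2 was 0.10 with no filter and from -0.25 to 0.04. For C1, Akt1 was 0.02 with total counts alone and 0.01 with limma and with the block. With 1 library left out the ranges were -0.11 to 0.13 for Akt1, -0.26 to 0.18 for Irs1, -0.05 to 0.35 for Irs2, -0.12 to 0.01 for Pik3r1 and -0.12 to 0.02 for Ptpn1. For C2, Pik3r1 was -0.02 with total counts alone and from -0.04 to 0.10; Akt1 ranged from -0.33 to 0.30, Foxo1 from -0.29 to 0.14 and Ptpn1 from -0.52 to 0.04. Between C2 and C1, Insr was -0.06 with total counts alone, -0.002 with no filter and from -0.08 to 0.12; the ranges were -0.32 to 0.31 for Akt1, -0.11 to 0.05 for Akt2, -0.41 to 0.01 for Foxo1, -0.35 to 0.07 for Irs1 and -0.44 to 0.12 for Ptpn1. The cause of these shifts was not tested.

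With the replicate number as a block, 483 genes were called for the diet, 36 for C1, 3 for C2 and 0 between the compounds, and the same 2 members for the diet (Irs2 -2.35, Igfbp2 -1.70). The numbers are not known to pair libraries: correlations of same-numbered NCD and HFD deviations were -0.036, 0.295 and -0.141. The shallow NCD replicate 2 held 54 reads of Irs2. Without this library the Irs2 log2 change for the diet was -2.50 (edgeR adjusted p 0.016). Without NCD replicate 1 it was -2.12 (edgeR adjusted p 0.000117). The part of depth in the spread within chow was not tested.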

Other observations

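Within a library, Akt1 per kilobase was 0.0768, 0.461 and 0.586 times Akt2 in NCD replicates 1 to 3 and 0.680 to 0.945 times in HFD. It was 0.832 to 0.898 times in HFD+C1, and 0.418, 1.05 and 0.999 times in HFD+C2. The HFD ratios all exceeded the NCD ratios (exact two-sided permutation p 0.1, the smallest possible).

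Igfbp2 per kilobase was 31.7, 11.7 and 14.3 times Igfbp1 in NCD and 9.72 to 11.8 times in HFD. It was 16.5, 13.5 and 23.3 times in HFD+C1, above every HFD library and above the 7.30 to 10.9 times of HFD+C2. The exact two-sided permutation p was 0.1 for C1 against HFD and for C2 against C1, the smallest possible with 3 against 3 libraries, and 0.3 for the diet and for C2 against HFD. Adjusted over the 12 tests of 3 gene pairs, each p of 0.1 became 0.24 and each of 0.3 became 0.45. These ratios were chosen after the values were seen. The ratio of Irs2 to Irs1 was 0.358, 0.360 and 0.648 in HFD+C2, above every HFD library (exact two-sided permutation p 0.1, adjusted 0.24).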
